A study of Homo sapiens with 12 samples.

Results

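In venetoclax-resistant SUDHL16 cells, 19 autosomal protein-coding genes of 18690 counted were at or near 0 reads although SUDHL16 parental cells expressed them. They were selected on their measured values, by at most 3 raw counts in each of the resistant libraries CE-28, CE-29 and CE-30 and a mean of at least 5 CPM over the parental libraries CE-25 and CE-27. CPM here is the count per 1000000 counts of the library. Of the 18690 genes, 9142 had that mean level, 6145 had no more than 3 counts in every resistant library, and 21 met both limits. JCHAIN and DYSF, which also met them, were left out of the set. The 19 genes are RBMS3, MARK1, TRPS1, LUM, ZNF43, CCDC50, EVC, RGMB, ARHGAP42, EVC2, TDRD15, ZIK1, MKS1, ANTXR2, JPH1, ZNF606, ZNF573, ZKSCAN7 and FKBP5.

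SUDHL6 and SUDHL16 are established lines of diffuse large B-cell lymphoma (DLBCL), and venetoclax (ABT-199) is an inhibitor of the anti-apoptotic protein BCL2. Each resistant line was raised from its parental line by chronic exposure to rising venetoclax and could grow at 10 times the original IC50. RNA of each of the 4 groups (SUDHL6-parental, SUDHL6-resistant, SUDHL16-parental and SUDHL16-resistant) was sequenced in 3 libraries, 12 in all. For SUDHL6 the NEBNext Ultra II RNA kit and a HiSeq sequencer were used, and for SUDHL16 a stranded total RNA kit with RiboZero Plus depletion and a NovaSeq sequencer, so levels were compared within a line only. The labels do not say whether the libraries of a group came from separate cultures or whether a resistant line was 1 clone. The p-values therefore measure the spread between these libraries, which may be technical. In bulk RNA, fewer cells that express a gene and less RNA of it per cell cannot be told apart.

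Library totals were 33992784 to 40885665 counts in SUDHL6 and 14335460 to 22068221 counts in 5 of the SUDHL16 libraries. The parental library CE-26 stood apart, with 4131927 counts, 55.4% of them on protein-coding genes (84.3% to 90.2% in the other SUDHL16 libraries) and 31.9% on identifiers absent from GENCODE release 44 (1.61% to 5.06% in the others). The selection did not use CE-26, and its counts are given apart below. The B-cell markers fixed for the check (PAX5, MS4A1, CD79A and others) were all measurable in SUDHL16, where their summed level was 5918.8 and 5833.7 CPM in CE-25 and CE-27, 2425.0 CPM in CE-26 and 5825.7 to 6146.7 CPM in the resistant libraries.

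A mammalian gene can be kept silent through cell divisions by methylation of the CpG dinucleotides at its start site, by the Polycomb complexes or by methylation of histone H3 at lysine 9, and a gene whose DNA is lost makes no RNA either. None of these was measured in these libraries, which hold RNA only. The 19 genes do not belong to a single pathway, and are described by what their proteins do: proteins of the primary cilium and Hedgehog signalling, RNA-binding and signalling proteins, zinc finger transcription factors, proteins of the matrix and membrane, and FKBP5 and TDRD15.

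Over the set, 16 genes had 0 counts in all 3 resistant libraries, and RBMS3, ZNF43 and ZKSCAN7 had a few. The resistant libraries held 9 reads of the 19 genes together, against 9924 in CE-25 and CE-27 and 945 in CE-26. Mean levels over CE-25 and CE-27 were 5.13 to 88.9 CPM with a median of 9.83 CPM. With 3 counts over the 3 resistant libraries as the floor of a count of 0, the 16 genes were at least 97.2-fold to at least 688-fold lower, with a median bound of 175-fold. These folds describe what the selection chose and have no test, and the bounds and intervals cover counting error only. CE-25 and CE-27 were within 1.5-fold of each other in CPM for 15 of the 19 genes, and CE-25 was the higher for 11.

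**Figure D1:**
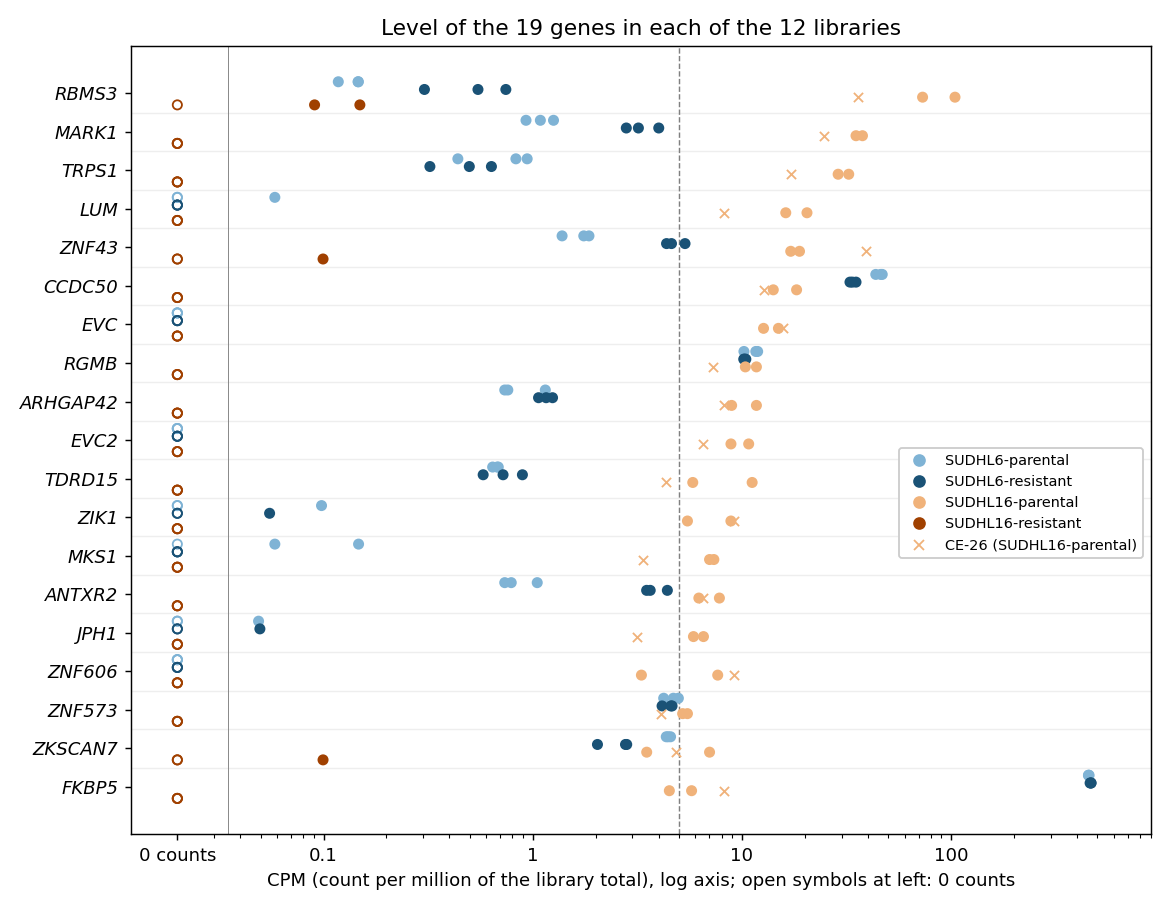
Level of each of the 19 genes (lines of the plot) in each of the 12 libraries, as CPM on a log axis, with 0 counts drawn as open circles at the left and the 5 CPM limit dashed. The SUDHL16-resistant circles sit at 0 counts or below 0.15 CPM, whereas the SUDHL6 values run from 0 for EVC, EVC2 and ZNF606 to 468 CPM for FKBP5.

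EVC and EVC2 are a complex at the base of the primary cilium that carries the Hedgehog signal downstream of the transducer SMO, and their loss causes Ellis-van Creveld syndrome. EVC (chr4:5711201-5814305, plus strand) had 212, 65 and 226 counts in CE-25, CE-26 and CE-27 and 0 in the resistant libraries, at least 260-fold lower. EVC2 (chr4:5542772-5709548, minus strand) had 180, 27 and 134 parental counts in the same order and 0 in the resistant libraries, at least 186-fold lower. For both genes the selection set the mean of CE-25 and CE-27 above the resistant libraries, and CE-26 was above them too. The 27 CE-26 counts of EVC2 are within the range of genes silent in the line (4.43% of them had as many). Neither gene had a read in any of the 6 SUDHL6 libraries.

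The genes stand head to head, with 1653 bases between their GENCODE starts, and were the closest pair of the set. The 200 bases upstream of each RefSeq start (build GRCh38.p14) are shown because this pair shares the region between its starts. CpG dinucleotides are in capitals, 8 before EVC (chr4:5711001-5711200, plus strand) and 22 before EVC2 (chr4:5708560-5708759, minus strand, where the RefSeq start lies 989 bases inside the GENCODE gene).
EVC: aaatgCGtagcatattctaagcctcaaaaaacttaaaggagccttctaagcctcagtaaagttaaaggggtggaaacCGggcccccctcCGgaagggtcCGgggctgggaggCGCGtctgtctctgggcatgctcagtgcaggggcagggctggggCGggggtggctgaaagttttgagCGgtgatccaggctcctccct
EVC2: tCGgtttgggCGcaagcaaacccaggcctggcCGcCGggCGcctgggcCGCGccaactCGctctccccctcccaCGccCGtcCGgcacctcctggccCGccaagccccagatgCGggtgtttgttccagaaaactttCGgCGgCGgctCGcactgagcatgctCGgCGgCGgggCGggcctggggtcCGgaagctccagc

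MKS1 (chr17:58205441-58219605), a protein of the ciliary transition zone, had 117, 14 and 111 parental counts in CE-25, CE-26 and CE-27 and 0 in the resistant libraries, at least 135-fold lower. In SUDHL6 it had 2, 5 and 0 counts in the parental libraries and 0 in the resistant ones. The 14 other genes of the transition zone module gave 12 that could be tested in SUDHL16, and 0 of them were called by edgeR, with 3 at an unadjusted p under 0.05. CEP290, for example, had 836, 165 and 752 parental counts and 875, 861 and 1358 resistant counts (log2 fold change 0.07 ± 0.24, SE, edgeR adjusted p = 0.910), which overlap. A gene was called here at an edgeR adjusted p under 0.05 and at least a 1.5-fold change, and 5.3% of the 15708 genes tested in SUDHL16 were called, 3.2% higher and 2.1% lower. Of the 11 other Hedgehog and EvC partner genes, 7 were tested and 1 was called. That gene, SMO, the receptor-coupled transducer itself, rose from 263, 58 and 315 parental counts to 1307, 1710 and 1349 resistant counts (log2 fold change 2.07 ± 0.26, SE, adjusted p = 0.00377). It was called with any of the 6 libraries left out. PTCH1, the Hedgehog receptor, had 1506, 147 and 1548 parental and 1284, 1938 and 2904 resistant counts (log2 fold change 0.38, adjusted p = 0.549).

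RBMS3, a single-stranded RNA-binding protein (chr3:28574791-30010391), had 1745, 148 and 1105 parental counts in CE-25, CE-26 and CE-27, or 105, 35.8 and 73.2 CPM, and 0, 3 and 2 counts in CE-28, CE-29 and CE-30. The 2 parental libraries used were 1013-fold above the resistant ones, with an exact 95% counting interval of 434 to 3123. RBMS3 was the only member with a resistant count at the limit of 3. Its paralogue RBMS1 was just under the level limit at 4.52 CPM, with 80, 32 and 64 parental counts and 0 in all resistant libraries, at least 92.3-fold lower over the 3 parental libraries (edgeR adjusted p = 0.00797). The third paralogue, RBMS2, had 25, 24 and 15 parental and 12, 8 and 22 resistant counts, and its difference did not pass (log2 fold change -2.23 ± 1.01, SE, adjusted p = 0.278).

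MARK1, a microtubule affinity-regulating kinase of the family that phosphorylates tau (chr1:220528136-220664461), had 630, 102 and 531 parental counts and 0 in each resistant library, at least 688-fold lower. MARK2, MARK3 and MARK4 had reads in all 6 SUDHL16 libraries, and none of these 3 kinases was called, with log2 fold changes of -0.03, -0.52 and -0.06 and adjusted p-values of 0.969, 0.365 and 0.919. CCDC50, a ubiquitin-binding adaptor phosphorylated downstream of growth factor receptors (chr3:191329085-191398659), had 236, 53 and 276 parental counts and 0 resistant counts, at least 303-fold lower. For MARK1 and CCDC50 the selection set the mean of CE-25 and CE-27 above the resistant libraries. CE-26, which the selection did not use, was above them as well.

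ARHGAP42, a GTPase-activating protein of RhoA also known as GRAF3 (chr11:100687288-100993941), had 196, 34 and 135 parental counts and 0 resistant counts, at least 196-fold lower. Its paralogue ARHGAP26 had 201, 140 and 210 parental and 67, 115 and 80 resistant counts, a difference that missed the threshold (log2 fold change -2.41 ± 0.60, SE, adjusted p = 0.058). The 200 bases before the ARHGAP42 start (chr11:100687088-100687287, plus strand) are shown as a start site dense in CpG, with 20 in capitals.
ARHGAP42: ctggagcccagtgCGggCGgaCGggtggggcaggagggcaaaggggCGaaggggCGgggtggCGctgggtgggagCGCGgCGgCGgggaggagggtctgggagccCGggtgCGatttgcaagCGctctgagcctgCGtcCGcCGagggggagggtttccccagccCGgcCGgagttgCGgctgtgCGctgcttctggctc

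Zinc finger transcription factors made up 6 of the 19 genes. TRPS1, a GATA-type transcriptional repressor on chromosome 8, had 482, 71 and 490 parental counts and 0 resistant counts, at least 576-fold lower. The other 5 are C2H2 zinc finger genes, most of which encode repressors that act through a KRAB domain. ZNF43 (chr19:21804946-21852125) had 286, 162 and 285 parental counts and 0, 2 and 0 resistant counts, a ratio of 508 with an exact 95% interval of 140 to 4201. It was the member with the most reads in CE-26, at 39.2 CPM against 17.1 and 18.9 CPM in CE-25 and CE-27.

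ZIK1 (chr19:57578456-57593890) had 148, 38 and 83 parental counts and ZNF606 (chr19:57977076-58003349) had 128, 38 and 50, both with 0 in the resistant libraries, at least 137-fold and at least 105-fold lower. They lie 383186 bases apart in the zinc finger gene cluster at the end of chromosome 19 and are, beside EVC and EVC2, the only members within 1 Mb of each other. ZNF573 (chr19:37735833-37817300) had 87, 17 and 83 parental counts and 0 resistant counts, at least 101-fold lower.

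ZKSCAN7 (chr3:44555193-44594173), which carries a SCAN domain beside its zinc fingers, had 117, 20 and 53 parental counts and 0, 2 and 0 resistant counts, a ratio of 151 with an interval of 41.2 to 1258. It shares its locus with ZNF660, which had 40, 14 and 28 parental counts and 0 in all resistant libraries, and with ZNF197, which kept 232, 321 and 484 resistant counts against 415, 67 and 342 parental counts. ZKSCAN7, ZNF660 and ZNF197 are annotated on the same strand and overlap, so the authors' counting could have split their reads. The 200 bases before the ZKSCAN7 start (chr3:44554993-44555192, plus strand) are shown because this gene was also lower in resistant SUDHL6 cells, and they hold 22 CpG in capitals.
ZKSCAN7: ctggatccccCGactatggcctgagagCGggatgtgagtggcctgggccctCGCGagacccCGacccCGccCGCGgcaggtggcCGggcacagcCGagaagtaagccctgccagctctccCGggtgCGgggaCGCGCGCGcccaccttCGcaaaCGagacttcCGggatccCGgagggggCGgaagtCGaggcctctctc

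LUM encodes lumican, a small leucine-rich proteoglycan of collagen matrix (chr12:91102629-91111494). It had 342, 34 and 245 parental counts and 0 resistant counts, at least 348-fold lower. DCN, encoding the related proteoglycan decorin 28990 bases away, fell from 358, 74 and 318 parental counts to 0, 5 and 10 (log2 fold change -6.47 ± 0.76, SE, edgeR adjusted p = 0.00267). LUM and DCN are also markers of stromal cells, and stand in the list of 14 stromal and epithelial markers fixed for the check. LUM itself was chosen for its values, so its place in the list carries no test. Of the others 3 were tested: DCN and VIM were lower, and PECAM1 was not called (log2 fold change -1.39 ± 1.87, SE, adjusted p = 0.761). The PECAM1 value rests on CE-26 for its parental reads. Without CE-26, 4 genes of the whole list were tested, and 3 were called lower and 1 higher. VIM, the intermediate filament vimentin, had 8830, 1231 and 11258 parental and 0, 8 and 21 resistant counts. The 11 remaining markers summed to 0.479 and 0.0662 CPM in CE-25 and CE-27, 39.2 CPM in CE-26 and 1.09 to 1.77 CPM in the resistant libraries. COL1A1, PDGFRB, PECAM1, VWF and EPCAM were at 0 counts in CE-25 and CE-27, but not all of the 11 were. In the SUDHL6 libraries all 14 markers summed to 381 to 415 CPM, and the 11 without LUM, DCN and VIM to 1.68 to 3.78 CPM. Which cells the LUM, DCN and VIM reads came from was not tested.

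RGMB, a membrane-anchored co-receptor for bone morphogenetic proteins (chr5:98768650-98798643), had 196, 30 and 157 parental counts and 0 resistant counts, at least 209-fold lower. Of the 15 other genes listed for this pathway, 8 were tested and 1 was lower. It was ACVR2A, a type II receptor, with 252, 56 and 271 parental and 53, 121 and 85 resistant counts (log2 fold change -1.95 ± 0.37, SE, adjusted p = 0.0221), and the call was lost without any of the libraries but CE-26 (highest adjusted p = 0.102). ANTXR2, an anthrax toxin receptor that binds matrix proteins (chr4:79901146-80125454), had 104, 27 and 118 parental counts and 0 resistant counts, at least 132-fold lower. JPH1, a junctophilin that ties the endoplasmic reticulum to the plasma membrane, on chromosome 8, had 98, 13 and 99 parental counts and 0 resistant counts, at least 117-fold lower. The start of GDAP1 lies 927 bases from that of JPH1 on the other strand, and GDAP1 kept its reads, with 551, 42 and 264 parental and 301, 682 and 940 resistant counts (log2 fold change 0.58, adjusted p = 0.464).

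FKBP5 encodes FKBP51, a co-chaperone of HSP90 that lowers the activity of the glucocorticoid receptor and is itself a known glucocorticoid-induced gene (chr6:35573585-35728583). It had 96, 34 and 68 parental counts and 0 resistant counts in SUDHL16, at least 97.2-fold lower. The receptor gene NR3C1 had 6780, 542 and 4968 parental and 4041, 7511 and 6629 resistant counts (log2 fold change 0.06, adjusted p = 0.945), and 0 of the 6 partner genes was called by edgeR (2 at an unadjusted p under 0.05). Of 6 other genes known to be induced by glucocorticoids, 5 were tested and 3 were higher in the resistant line: SGK1 (log2 fold change 3.19 ± 0.33, SE, adjusted p = 0.00160), TSC22D3 (2.40 ± 0.42, adjusted p = 0.0147) and PER1 (1.33 ± 0.25, adjusted p = 0.0219). SGK1 was called with any library left out, TSC22D3 not without CE-25 or CE-29 (highest adjusted p = 0.0542), and PER1 only without CE-26 (otherwise up to 0.0990). FKBP5 was at 0 in libraries in which these 3 genes had 477 to 4769 counts each. Glucocorticoid signalling was not measured, and whether it bears on FKBP5 was not tested. TDRD15, a tudor domain protein of a family that works with germline small RNAs (chr2:21123968-21144368), had 187, 18 and 88 parental counts and 0 resistant counts, at least 163-fold lower.

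The 200 bases before the starts of FKBP5 (chr6:35728584-35728783, minus strand) and of ANTXR2 at its RefSeq start (chr4:80073473-80073672, minus strand, 51982 bases inside the GENCODE gene) are shown as the start sites with few CpG. Each holds 2, in capitals, against 20 before ARHGAP42 and 22 before ZKSCAN7.
FKBP5: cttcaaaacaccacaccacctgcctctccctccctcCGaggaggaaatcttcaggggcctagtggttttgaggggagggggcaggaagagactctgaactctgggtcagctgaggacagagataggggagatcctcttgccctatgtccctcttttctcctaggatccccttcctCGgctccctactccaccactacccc
ANTXR2: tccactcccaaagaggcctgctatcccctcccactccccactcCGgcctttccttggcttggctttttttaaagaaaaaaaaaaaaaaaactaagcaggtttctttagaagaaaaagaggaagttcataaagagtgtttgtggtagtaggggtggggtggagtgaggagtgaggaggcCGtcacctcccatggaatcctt

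In CE-26, which the selection did not use, every member had reads, between 13 and 162 counts with a median of 34. Relative to the mean of CE-25 and CE-27, the CE-26 level was 0.403 to 2.18 times as high with a median of 0.768. Over the 6408 other autosomal protein-coding genes in the same range of parental levels the median was 0.601, with quartiles of 0.436 and 0.879. The lowest ratio was that of RBMS3 and the highest that of ZNF43. CE-26 was above both other parental libraries for 5 members and below both for 12. It also held reads of genes that the rest of the line did not express. Among 5286 autosomal protein-coding genes with at most 3 counts in each of the 5 other SUDHL16 libraries, the median CE-26 count was 5, 55.3% were above 3 counts and 22.9% reached 13, the lowest count of a member. The 99th percentile of these genes was 40 counts, and RBMS3, MARK1, TRPS1, ZNF43, CCDC50 and EVC exceeded it. The other 13 members did not, and for MKS1 and JPH1, with 14 and 13 counts, 20.5% and 22.9% of the silent genes had as many. The CE-26 counts of these 13 genes are within the range of genes that were silent in the line.

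**Figure D2:**
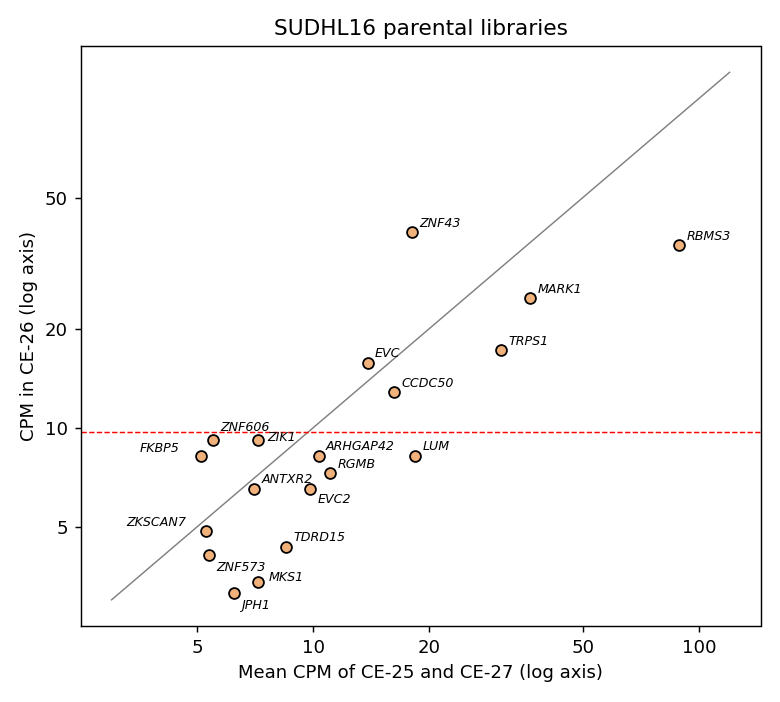
CPM in CE-26 against the mean CPM of CE-25 and CE-27 for each of the 19 genes, both on log axes, with the line of equal levels in grey and the 99th percentile of the CE-26 background (40 counts) in dashed red. ZNF43, RBMS3, MARK1, TRPS1, EVC and CCDC50 lie above the dashed line and 13 genes below it.

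The limits of the selection fell among genes of like values. FKBP5, ZKSCAN7 and ZNF573 were just above the level limit, at 5.13, 5.26 and 5.36 CPM, and H4C6, COL24A1 and RBMS1 just below it, at 4.98, 4.63 and 4.52 CPM. FAM13A and CABLES1, each with 4 counts in CE-30, and RGS17, with 5 counts there, were just beyond the count limit, and all 3 had 0 counts in CE-28 and CE-29.

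The SUDHL6 libraries were not used by the selection, and they showed whether these genes differed between parental and resistant cells of another line. Mean levels over the 6 libraries were 5 CPM or more for 3 members (FKBP5, CCDC50 and RGMB), 1 to under 5 CPM for 6 and under 1 CPM for 10. After the filter on low counts 12 of the 19 genes could be tested, and LUM, EVC, EVC2, ZIK1, MKS1, JPH1 and ZNF606, with at most 5 counts in each SUDHL6 library, could not. Of the 12, 4 were called higher and 1 lower in resistant SUDHL6 cells. Over all 16662 genes tested in SUDHL6, 8.96% were called, 4.31% higher and 4.65% lower. The median log2 fold change of the 12 genes was 0.07.

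The 4 genes that rose in resistant SUDHL6 cells were ANTXR2, RBMS3, MARK1 and ZNF43. ANTXR2 had 27, 25 and 43 counts in the parental libraries (CE-7, CE-8 and CE-9) and 177, 147 and 127 in the resistant ones (CE-10, CE-11 and CE-12), or 0.859 ± 0.169 and 3.85 ± 0.484 CPM (SD, n = 3 libraries each). Its groups did not overlap, and it rose by 2.14 ± 0.18 on the log2 scale (SE, edgeR adjusted p = 1.46e-06). RBMS3 was low in SUDHL6, with 5, 4 and 6 parental and 22, 30 and 11 resistant counts, and rose by 1.93 ± 0.46 (SE, adjusted p = 0.00526) without overlap. In CPM it went from 0.137 ± 0.0167 to 0.532 ± 0.221 (SD, n = 3).

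MARK1 had 43, 37 and 38 counts in the SUDHL6 parental and 161, 113 and 116 in the resistant libraries, or 1.09 ± 0.164 and 3.34 ± 0.613 CPM (SD, n = 3), and rose by 1.61 ± 0.19 (SE, adjusted p = 2.55e-05). ZNF43 had 60, 47 and 76 parental and 215, 176 and 167 resistant counts, or 1.67 ± 0.250 and 4.78 ± 0.513 CPM (SD, n = 3), and rose by 1.5 ± 0.16 (SE, adjusted p = 7.77e-06). For both genes every resistant library was above every parental library. In SUDHL16 the selection had fixed the direction of these 4 genes as lower, so the difference between the lines was not tested. RBMS2, the paralogue of RBMS3, also rose in SUDHL6 (138, 140 and 208 against 362, 383 and 408 counts, log2 fold change 1.15 ± 0.12, SE, adjusted p = 9.38e-06).

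ZKSCAN7 was the member that fell in SUDHL6 as well, from 156, 151 and 178 parental counts to 82, 112 and 102 resistant counts. In CPM this was 4.45 ± 0.106 and 2.55 ± 0.437 (SD, n = 3), groups that did not overlap, and a log2 fold change of -0.82 ± 0.15 (SE, edgeR adjusted p = 7.41e-04). Tested against a change of 1.5-fold rather than of 0 it was not called (adjusted p = 0.365). The overlapping ZNF660 had 68, 66 and 71 parental and 51, 38 and 59 resistant counts in SUDHL6.

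CCDC50 passed the adjusted p in SUDHL6 but not the 1.5-fold limit, going from 1579, 1486 and 1919 counts to 1322, 1417 and 1224. These are 45.6 ± 1.69 and 34.0 ± 1.13 CPM (SD, n = 3), without overlap, and a log2 fold change of -0.44 ± 0.04 (SE, adjusted p = 5.99e-06). FKBP5 had 15449 to 18713 counts in the SUDHL6 parental and 16760 to 18850 in the resistant libraries, or 456 ± 1.67 and 466 ± 2.69 CPM (SD, n = 3). Its groups did not overlap in CPM (454 to 458 and 463 to 468). The log2 fold change was 0.02 ± 0.02 (SE, edgeR adjusted p = 0.309). RGMB had 348 to 477 parental and 370 to 420 resistant counts in SUDHL6, 11.3 ± 0.903 and 10.3 ± 0.121 CPM (SD, n = 3), which overlapped (log2 fold change -0.14 ± 0.08, SE, adjusted p = 0.211).

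The other tested members were TRPS1, ARHGAP42, TDRD15 and ZNF573. TRPS1 had 15, 32 and 34 parental and 20, 13 and 23 resistant counts in SUDHL6 (log2 fold change -0.62 ± 0.36, SE, adjusted p = 0.202). ZNF573 had 160 to 173 parental and 166 to 187 resistant counts (log2 fold change -0.06 ± 0.12, SE, adjusted p = 0.718). For ARHGAP42 and TDRD15 the log2 fold changes were 0.37 ± 0.24 and 0.12 ± 0.27 (SE, adjusted p = 0.259 and 0.763). The groups of these 4 genes overlapped.

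**Figure D3:**
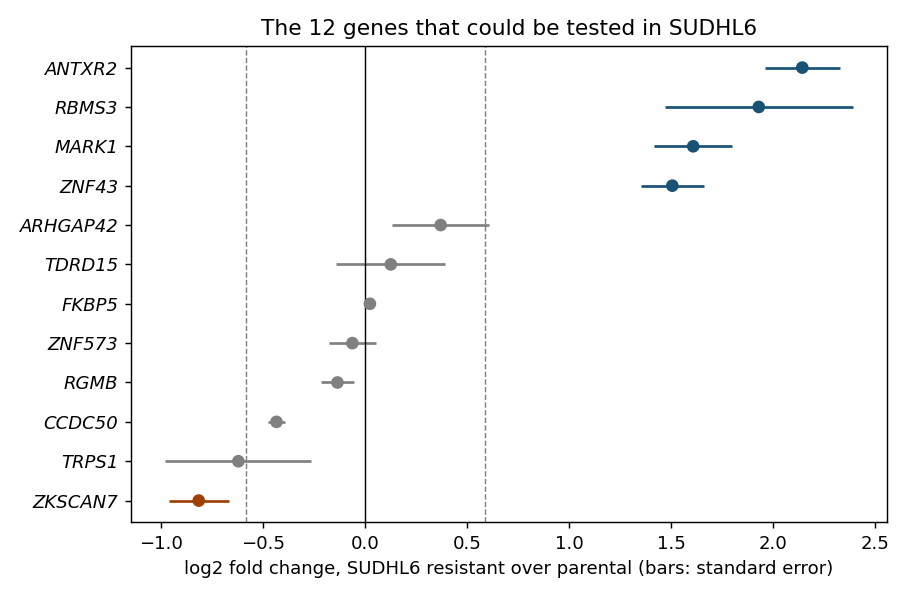
Log2 fold change of the 12 tested genes in SUDHL6 resistant over parental libraries, with standard errors as bars and the 1.5-fold limits dashed. Genes called higher are in blue (ANTXR2, RBMS3, MARK1 and ZNF43), ZKSCAN7, called lower, is in brown, and the 7 others in grey lie between -0.62 and 0.37.

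Genes near the members were then examined in SUDHL16. The neighbours were not selected on their values, although they come from the same libraries. Only 11 members had a tested neighbour within 250 kb and 8 had none, and silence of a whole stretch was not tested. Within 250 kb of a member, 64 other protein-coding genes could be tested. Of these, 11 were lower and 1 was higher in the resistant line. Their median log2 fold change was -0.55, and 48 of 64 were below 0. Over all genes tested 2.1% were lower and 3.2% higher, with a median of -0.02. Without CE-26, 13 were lower and 1 higher, and the median was -0.41, where 3.32% of all genes tested were lower and their median was 0.05. Without CE-25 the number lower was 6, and without CE-28, CE-29 or CE-30 it was 3, 2 and 2. Calls over all genes, in either direction, went from 833 to 407 without CE-25 and to 318, 279 and 324 without CE-28, CE-29 and CE-30.

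The lower neighbours were mostly neighbours of the zinc finger members. Near the 5 C2H2 zinc finger members, 10 of 49 genes were lower and 0 were higher (edgeR), with a median of -1.08 (12 of 49 and -0.63 without CE-26). All 10 were themselves zinc finger genes. Near the 14 other members, 1 of 15 genes (DCN, beside LUM) was lower and 1, PPARD, was higher, with a median of 0.03 (0.08 without CE-26). Of these 14 members, 8 had no tested neighbour within 250 kb. Within 1 Mb of those 8, BMP3 (near ANTXR2), CEP126 (near ARHGAP42) and IL1RAP (near CCDC50) were lower. GDF7, near TDRD15, was higher, and the other tested genes there were not called. PPARD, a lipid-sensing nuclear receptor 145394 bases from FKBP5, rose from 266, 22 and 222 to 803, 909 and 1155 counts (log2 fold change 1.98 ± 0.30, SE, edgeR adjusted p = 0.00730, and 0.0514 without CE-28). ZSCAN18, near ZNF606, fell from 498, 130 and 507 to 10, 18 and 29 counts (log2 fold change -5.20 ± 0.40, SE, adjusted p = 5.51e-04), and was called with any library left out. ZNF540, near ZNF573, and ZNF544, near ZNF606, went from 16 to 34 counts in each parental library to 0 in every resistant library, at least 31.5-fold and at least 46.7-fold lower. ZNF544 was not called without CE-28, CE-29 or CE-30, and ZNF540 was called in the smaller sets only without CE-26. ZNF416, whose start is 455 bases from that of ZIK1 on the other strand, kept 92, 144 and 163 resistant counts against 156, 22 and 141 parental counts.

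**Figure D4:**
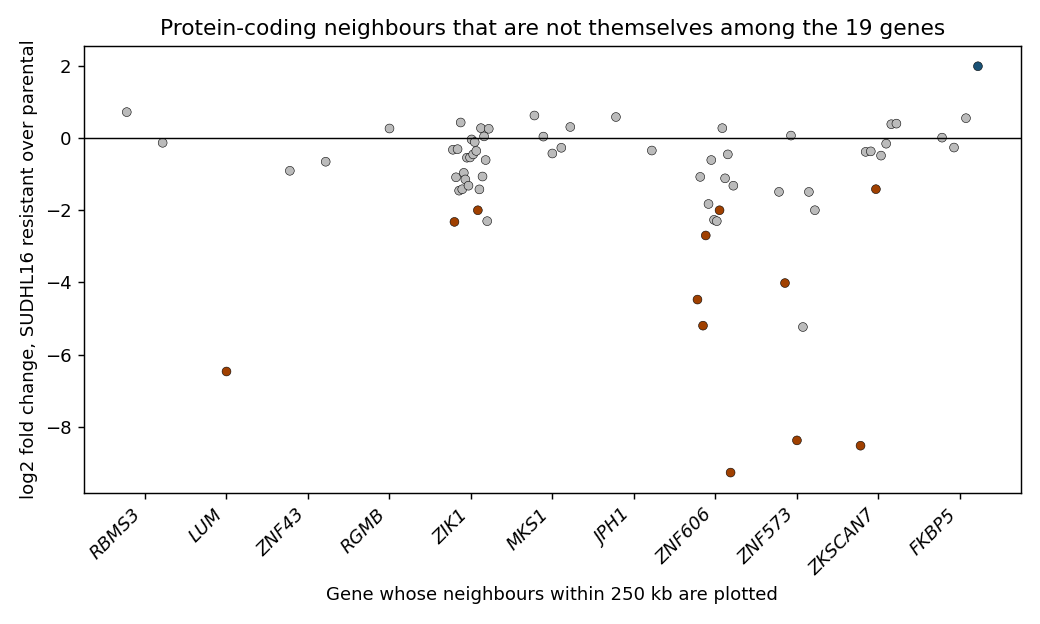
Log2 fold change in SUDHL16 (resistant over parental) of the tested protein-coding genes within 250 kb of each member, for the 11 members that had any, with genes called lower in brown, higher in blue and others in grey. The 6 genes near more than 1 member appear at each, and the values of ZNF660, ZNF540 and ZNF544 (0 counts in the resistant line, plotted below -8) depend on the fit's prior count. Brown points gather at ZIK1, ZNF606, ZNF573 and ZKSCAN7, and the neighbours of RBMS3, RGMB, MKS1 and JPH1 stay between -0.43 and 0.71.

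The other zinc finger genes of chromosome 19, listed after the members were known, were counted in the same way. The ZNF neighbours on chromosome 19 given above, ZNF540 and ZNF544 among them, are part of this set, so the counts overlap. Of 189 tested ZNF genes there that are not members, 22 (11.6%) were lower and 0 were higher (edgeR, 80 at an unadjusted p under 0.05). The median of their log2 fold changes was -0.83. Without CE-26 it was 33 of 190 lower and 1 higher, with a median of -0.39. In SUDHL6, 8 of 194 were lower and 9 higher, with a median of 0.11.

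Genes that maintain or write silent chromatin were examined from fixed lists. DNMT3B, which places new DNA methylation, rose in the resistant SUDHL16 line from 55, 0 and 54 parental counts to 447, 609 and 602 counts (log2 fold change 3.52 ± 0.67, SE, edgeR adjusted p = 0.0212). It was the only gene called of 15 tested in the DNA methylation list, and rose in SUDHL6 by 0.67 ± 0.06 (SE, adjusted p = 3.21e-06). Among the Polycomb genes, CBX8, a chromodomain subunit of the repressive complex PRC1, was higher, with 232, 32 and 206 parental and 512, 457 and 724 resistant counts (log2 fold change 1.23 ± 0.28, SE, adjusted p = 0.0429). Of 15 genes of H3K9 methylation and HP1, EHMT1, a writer of H3K9 methylation, was lower (log2 fold change -0.97 ± 0.22, SE, adjusted p = 0.0423). None of the 20 genes of histone deacetylase complexes was called by edgeR, with 3 at an unadjusted p under 0.05. Of 18 tested activating chromatin factors, KDM6B, the eraser of H3K27 methylation, was higher (log2 fold change 1.79 ± 0.30, SE, adjusted p = 0.0122). With a library left out in turn, DNMT3B stayed called without CE-26 or CE-27 only (highest adjusted p = 0.115), KDM6B without CE-25, CE-26 or CE-29 (0.0615), and CBX8 and EHMT1 without CE-26 only (0.164 and 0.198). Whether any of these genes bears on the 19 was not tested.

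The start sites of the members were compared with those of other genes in RefSeq sequence, which the selection did not use. Windows from 250 bases before to 50 after the start were found for 14 of the 19 genes, and MARK1, TRPS1, LUM, CCDC50 and JPH1 had no entry. The RefSeq start that set the window lay far from the start of the GENCODE gene for RBMS3 (706280 bases), ANTXR2 (51982), ZNF573 (37714), ZNF43 (15943) and ZIK1 (5689), and which start these cells use was not measured. The 14 windows held a median of 16.5 CpG, against 23 over 14506 autosomal protein-coding genes and 27 over the 7600 of them with at least 5 CPM in CE-25 and CE-27. The ratio of observed to expected CpG had a median of 0.707, against 0.774 and 0.860. A window counted as rich in CpG at a ratio of at least 0.6 and a G+C share of at least 50%, which held for 7 of 14 members (50%), 65.0% of all genes and 84.4% of the expressed genes. The members ranged from FKBP5, with 3 CpG and a ratio of 0.130, to MKS1, with 37 and 1.16. With 14 genes, these shares are a description only.

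**Figure D5:**
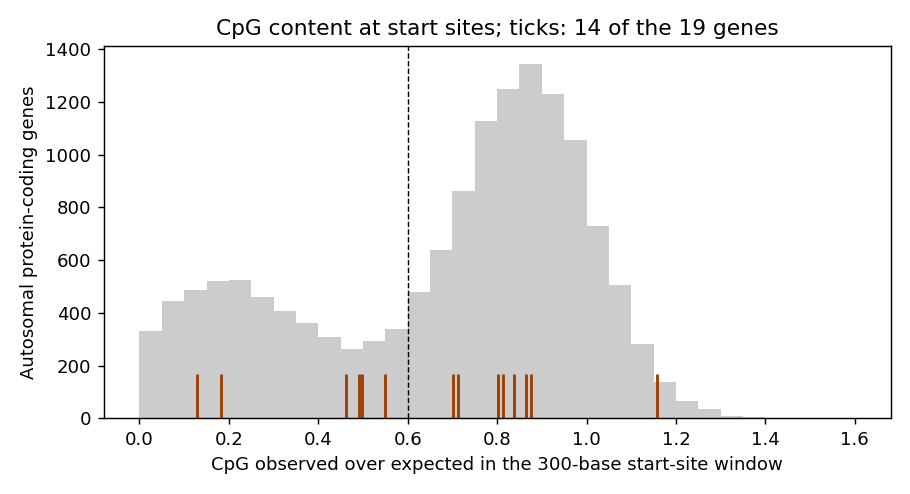
Histogram of the observed over expected CpG ratio in the 300-base start-site windows of 14506 autosomal protein-coding genes, with 14 members as brown ticks and the ratio of 0.6 dashed. The ticks run from 0.130 (FKBP5) to 1.16 (MKS1), on both sides of the dashed line.

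Short motifs were searched on both strands of the 14 windows. The GC box GGGCGG was found in 8 of 14 (57.1%), against 59.8% of all genes and 71.8% of expressed genes, and it overlaps the CpG count because it holds a CG. The letters CAGCTG, an E-box of the E2A type, were in 4 of 14 (28.6%, against 17.7% and 16.3%). TATAAA was in 0 of 14 (9.65% of all genes), as were CACGTG (8.79%), ATTTGCAT (1.70%) and TTCNNNGAA (7.09%). GGAANNGAA was in 2 (14.3%, against 7.43%) and TGANTCA in 1 (7.14%, against 5.65%). A match is a run of letters, not a site shown to be bound.

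Beside GDAP1, ZNF197 and ZNF416, which kept their reads as given above, some overlapping genes were at 0 in the resistant line together with the member. HDAC1P2, a pseudogene within MARK1 on the same strand, had 37, 0 and 28 parental counts and 0 resistant counts, and RPS12P5, within RBMS3, had 12, 4 and 27 and 0. The long noncoding gene ENSG00000176593, which starts 1288 bases from ZNF606 on the other strand, had 32, 9 and 28 parental counts and 0 in the resistant line and in SUDHL6. Whether the counting assigned reads by strand is not given in the sources used here, so reads of a member and of an overlapping gene on the other strand could not be told apart.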

How the data were processed

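RNA of 12 libraries, 3 for each line and venetoclax status, was measured. The authors deposited raw counts per Ensembl gene for each library, made from reads trimmed with Trim Galore and aligned to GRCh38 with HISAT2 2.2.1, with StringTie 2.2.1 also named. The counting tool, its annotation and its use of strand are not given in the sources used here. Groups came from the labels, and symbols, types and positions from GENCODE release 44. Depth is given in the report as the total count per library.

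The genes were chosen with earlier results of these data known, and so were the fixed gene lists. The lists of paralogues, pathway partners and chromosome 19 zinc finger genes were written after the members were known. Named members follow a fixed rule (levels in each line, calls in SUDHL6, CE-26 ratio, proximity and the limits), which covers all 19. Results of some listed genes are not reported here. Neighbours and list genes were named because they were called, overlap a member or are its paralogues or partners.

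Each line was fitted alone in edgeR 4.0.16 (R 4.3.3), as kit and platform differ: filterByExpr, TMM, the two-sided quasi-likelihood test and Benjamini-Hochberg adjustment over all genes tested, with calls at an adjusted p under 0.05 and at least 1.5-fold, the thresholds of the study. The fits were tested on simulated data. The SUDHL16 values that chose the genes are given as a description, and LUM, also a listed marker, enters only the total of list genes called. Fold bounds used a floor of 3 counts over the 3 resistant libraries, and ratios an exact 95% conditional binomial interval. Alternatives were DESeq2 1.42.0, other scalings, no filter, glmTreat, 1 fit of all 12 libraries, leaving out each library, and other limits and windows. Start-site sequences are from RefSeq (GRCh38.p14), and figures were drawn with matplotlib 3.10.9.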

Additional observations from a re-analysis of the deposited data

Results flagged for a closer look

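In 4 genes every SUDHL6 library moved opposite to the SUDHL16 libraries: the resistant SUDHL6 libraries were all above the parental ones, and the resistant SUDHL16 libraries all below theirs, CE-26 included. The 27 CE-26 counts of ANTXR2 are within the range of genes silent in the line (4.43% of them had as many), and those of RBMS3, MARK1 and ZNF43 are above its 99th percentile. The log2 fold changes in SUDHL6 were 2.14 for ANTXR2, 1.93 for RBMS3, 1.61 for MARK1 and 1.5 for ZNF43. The direction in SUDHL16 was fixed by how the genes were selected, so the difference between the lines was not tested. The lines also differ in library kit and platform.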

How the results depend on the processing

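The number of genes selected was 19, and it was 30 with up to 10 counts allowed in a resistant library, 38 at 2 CPM, 9 at 10 CPM and 39 (18 of them members) with the mean taken over all 3 parental libraries, CE-26 included. Leaving out a library gave 19 to 29, the highest without CE-30. In SUDHL6, 1 fit of all 12 libraries called 2 members higher in place of 4 and 0 lower in place of 1, and glmTreat called 0 lower. Over all SUDHL6 genes the fit of all 12 called 140 in place of 1493, and glmTreat called 588. Named one by one, RBMS3 was not called with glmTreat (adjusted p = 0.0826) or in the fit of all 12 (0.183), ZNF43 not in the fit of all 12 (0.340), and ZKSCAN7 in neither (0.365 and 1.0). MARK1 and ANTXR2 were called under all 12 alternatives, and no direction was reversed for a called member. Neighbours called lower in SUDHL16 numbered 11, and 8 within 100 kb, 15 within 1000 kb, 22 with DESeq2, 7 with glmTreat, 24 in the fit of all 12 and 2 to 13 with a library left out. Those called higher numbered 1, and 0 within 100 kb, 2 within 1000 kb and 0 to 1 with a library left out, the 0 being without CE-28. Listed chromatin and marker genes called numbered 15 in SUDHL6, and 3 in the fit of all 12. In SUDHL16 they numbered 14, LUM (fixed by the selection) among them, and 22 with DESeq2, 9 with glmTreat, 33 in the fit of all 12 and 5 to 20 with a library left out (8 without CE-25 or CE-27, 5, 7 and 6 without CE-28, CE-29 and CE-30). Over all SUDHL16 genes 833 were called, and 1775 with DESeq2, 517 with glmTreat, 2855 in the fit of all 12 and 279 to 1636 with a library left out. Upper-quartile scaling and unscaled totals put the median of all SUDHL16 genes at -0.11 and 0.11, against -0.02. The cause of these changes was not tested. No paired analysis was possible because the labels give no replicate numbers, and the libraries of a group were numbered in accession order as names only. With 14335460 to 22068221 counts, 3 counts, the limit of the selection, are 0.136 to 0.209 CPM in the resistant SUDHL16 libraries. Lower levels rest there on fewer than 3 reads or on none. The biological coefficient of variation was 0.468 in SUDHL16 against 0.0516 in SUDHL6.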

Other observations

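Cell-type markers beside the 19 genes were read from the fixed lists in both lines. In SUDHL16, 14 of 14 B-cell markers were tested and 1, the complement receptor CR2, was higher in the resistant line, with 210, 38 and 251 parental and 2411, 3321 and 5048 resistant counts (log2 fold change 3.72 ± 0.27, SE, edgeR adjusted p = 4.94e-04). CR2 rose in SUDHL6 as well (1.90 ± 0.21, adjusted p = 1.24e-05). Of 11 tested germinal centre markers 1 was lower, ELL3 (-1.39 ± 0.29, adjusted p = 0.0303). Of 8 tested plasma cell markers, PRDM1, the driver of plasma cell differentiation, and XBP1 were higher and CD38 was lower (-3.92 ± 0.51, adjusted p = 0.00417). Without CE-26, 10 plasma cell markers were tested, 4 of them higher and 1 lower. PRDM1 had 0, 2 and 0 parental and 140, 269 and 254 resistant counts. PRDM1 was not called without CE-28, CE-29 or CE-30, nor XBP1 without CE-28 or CE-30, and ELL3 stayed called without CE-26 only, whereas CR2 and CD38 were called with any library left out. Of 4 tested T-cell markers CD3E was higher (2.59 ± 0.60, adjusted p = 0.0455, and called without CE-26 but with no other library left out), and CD3D and CD2 had 0 counts in all 3 resistant libraries. Of the 12 myeloid markers 1 could be tested, and it was not called. Without CE-26, 2 were tested and 1 was higher, where 1095 of all 16280 genes tested were higher. The 12 summed to 0 and 1.52 CPM in CE-25 and CE-27, 22.3 CPM in CE-26 and 4.82 to 6.49 CPM in the resistant libraries.

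In SUDHL6, 2 of 14 B-cell markers were called (BACH2 lower and CR2 higher), as were 4 of 10 plasma cell markers, all lower (XBP1, IRF4, SSR4 and DERL3). Among the germinal centre markers, MME was lower and LMO2 and MYBL1 were higher. Neither T-cell nor myeloid markers were called there, and 1 of 4 stromal and epithelial markers was higher.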
